A study of Mus musculus with 2 samples.

Results

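The genes described here encode enzymes that write and erase histone and DNA methylation and that erase histone acetylation, together with the Brd bromodomain genes. Histone acetyltransferase genes and some other histone methyltransferase genes are not among them. They were chosen by symbol, as protein-coding genes named Kdm, Kmt, Setd, Hdac, Sirt, Tet, Dnmt, Ezh or Brd with a number or letter, with Kdm5c, Kdm5d and Kdm6a left out. The choice gave 69 of the 55536 annotated genes, which had 606 annotated transcripts. Brd3os and Dnmt3c also met the symbol rule. Brd3os is named for its neighbour Brd3 and is not a bromodomain gene, while Dnmt3c is a close relative of Dnmt3b. A further 6 matching symbols without a protein-coding transcript stayed out.

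Methyltransferases of the Kmt, Setd and Ezh families place methyl groups on histone lysines, and Kdm enzymes remove them. Class I, II and IV Hdac enzymes remove acetyl groups with zinc, and sirtuins do so with NAD, while bromodomain proteins bind acetylated lysines. Dnmt enzymes methylate cytosines in DNA and Tet enzymes oxidise the methyl group. In macrophages these genes are studied for their part in inflammatory gene control and in the altered response to a repeated bacterial stimulus.

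RNA was taken from the nuclear fraction (nucleoplasmic in the sample description) of macrophages that had been grown from the bone marrow of C57BL/6J mice (primary phagocytic cells), depleted of ribosomal RNA and sequenced. Before collection the cultures received Lipid A, the TLR4-binding moiety of lipopolysaccharide, at 100 ng/ml for 12 hours, were washed and rested for 12 hours, and received 100 ng/ml again for 20 minutes. There was 1 group with 2 libraries, labelled as biological replicates but with the same donor label, and the starting RNA was 1 µg in the first and 500 ng in the second, so input and replicate cannot be told apart. Sex was not collected and the age is not given in the labels. Every culture was treated alike and no untreated library entered the data, so the values are levels and not responses. No test is possible in this design, since each library stands alone, and no p-value is given.

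The libraries held 21954179 and 17739520 expected counts, which are estimated reads per gene. A gene with 0 counts could still reach 0.137 CPM (counts scaled to a common library total) in replicate 1 and 0.169 CPM in replicate 2, which covers counting error only. All 12 macrophage markers reached 1 TPM (a level per transcript length, with equal library sums), with a median of 98.4 TPM. The markers of other cells summed to 1.97 and 3.20 TPM for 8 neutrophil genes, for 8 lymphoid genes to 0.06 and 0.42 TPM, for 6 stromal genes to 0.14 and 0.31 TPM, and for 5 erythroid genes to 1.90 and 1.12 TPM. Ly6g, Elane, Cd3e, Col3a1 and Klf1 were at 0 in both libraries. Mitochondrial mRNAs took 3.45% of the counts in replicate 1 and 6.32% in replicate 2.

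Most of the chromatin enzyme genes were present in nuclear RNA, at moderate levels. Of the 69 genes 61 had a mean of 1 TPM or more, or 88.4%, where 45.6% of the 22028 protein-coding genes did. Their median was 13.1 TPM over all 69 genes (12.6 in replicate 1 and 14.6 in replicate 2). Among the 61 genes at 1 TPM or more it was 16.6 TPM, and it was 8.91 TPM among the 10050 protein-coding genes at that level. Of those 61 genes, 41 lay above the latter median, 40 reached 10 TPM, 25 reached 20 TPM, 4 reached 50 TPM and 1 reached 100 TPM. Of the protein-coding genes at 1 TPM or more, 46.0% reached 10 TPM, 25.7% reached 20 TPM and 8.42% reached 50 TPM, where the shares of the 61 genes were 65.6%, 41.0% and 6.56%. The 69 genes together took 0.648% of the counts in replicate 1, with a 95% Wilson interval of 0.644 to 0.651, and 0.669% of them in replicate 2, with an interval of 0.665 to 0.673. In such bulk RNA, fewer cells that express a gene and less RNA per cell cannot be told apart.

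**Figure D1:**
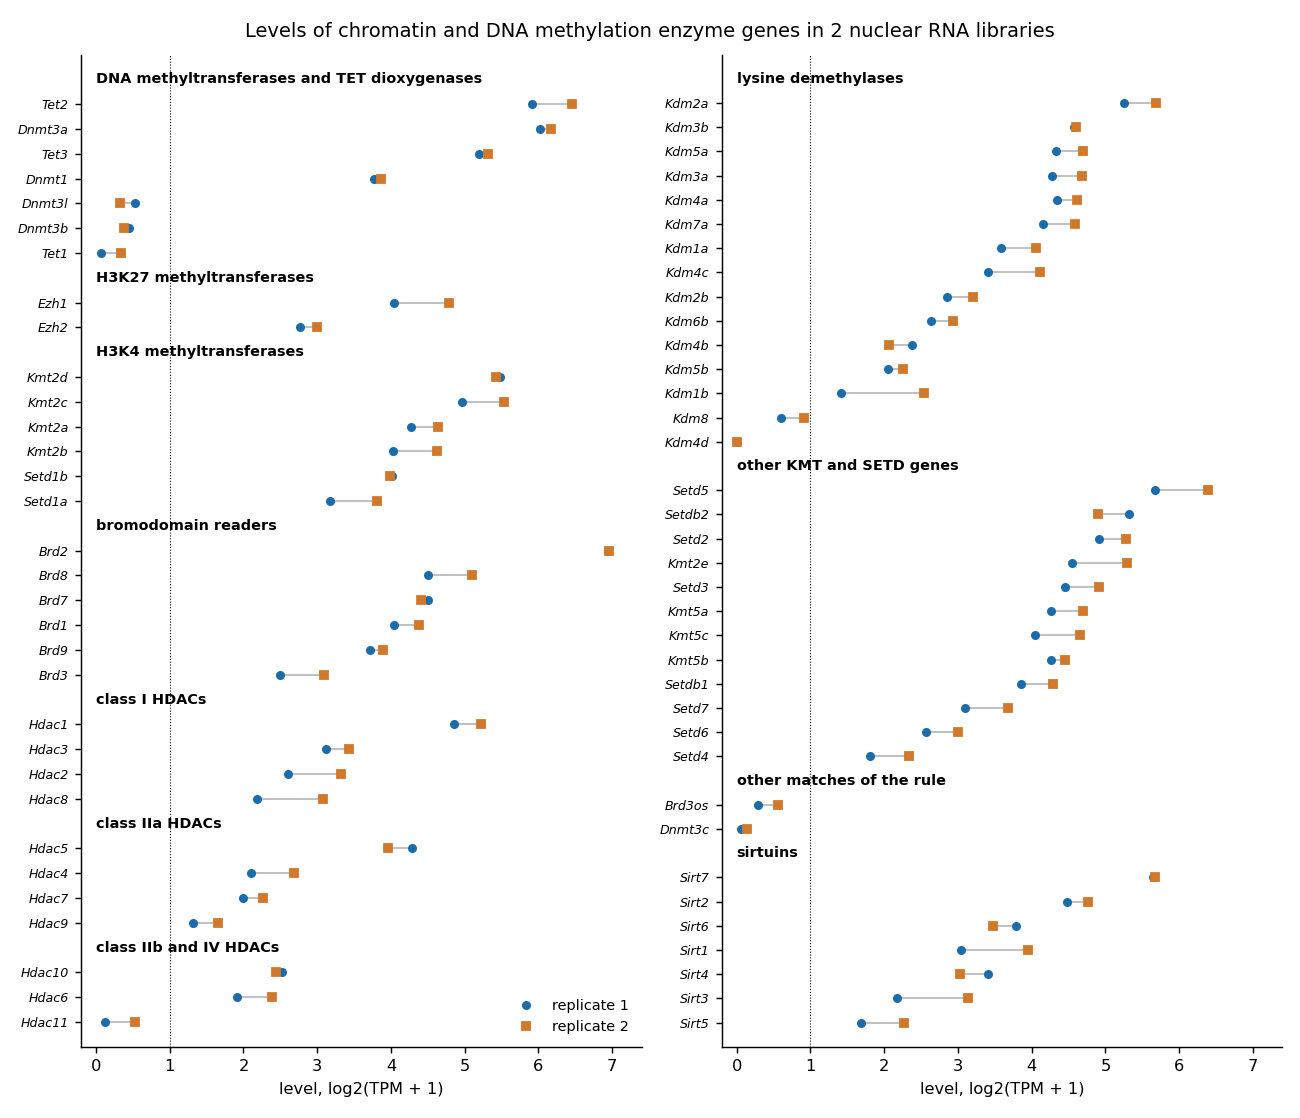
Level of 68 of the 69 genes in both libraries, grouped by role, as log2(TPM + 1) on the horizontal axis. Circles are replicate 1, squares are replicate 2, a grey line joins the pair and the dotted line marks 1 TPM. Brd2 stands highest, and Dnmt3l, Dnmt3b, Tet1, Hdac11, Kdm8, Kdm4d, Brd3os and Dnmt3c lie under 1 TPM in both libraries.

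Among the genes of DNA methylation, the de novo methyltransferase and the Tet2 and Tet3 dioxygenases stood well above the maintenance enzyme. Tet2 (ENSMUSG00000040943.12, chromosome 3, 133463679 to 133545139, mm10, minus strand), a dioxygenase gene often mutated in human clonal blood disorders, had 59.4 TPM in replicate 1 and 86.3 in replicate 2. Dnmt3a (ENSMUSG00000020661.15, chromosome 12, 3806007 to 3914443, plus strand), which methylates previously unmethylated DNA, had 64.2 and 71.2 TPM. Tet3 had 35.5 and 38.8 TPM. By TPM replicate 2 was higher for all 3 genes, but relative to the median gene the log2 differences were 0.24 for Tet2, -0.14 for Dnmt3a and -0.17 for Tet3. The ranges of Tet2 and Dnmt3a overlap while that of Tet3 lies below both. Dnmt1, which copies methylation after replication, had 12.6 and 13.5 TPM, lower than Tet3 in either library.

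The germ-line and early embryonic relatives were all under 1 TPM. Dnmt3b, the second de novo methyltransferase, had 0.36 and 0.30 TPM on 33.8 and 23 counts. Dnmt3l, the regulatory partner without catalytic activity, had 5 counts in replicate 1 and 1 count in replicate 2. Tet1, the dioxygenase of embryonic stem cells, had 11 and 20 counts, or 0.05 and 0.26 TPM. Dnmt3c, which arose by duplication of Dnmt3b, had 2.18 and 4 counts. Whether reads were split between these related genes was not tested, so both values are uncertain.

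All 6 methyltransferase genes of histone H3 lysine 4 were present. Kmt2d, an enhancer methyltransferase gene, had 43.4 TPM in replicate 1 and 41.9 in replicate 2. Kmt2c, its closest relative, had 30.1 and 45.4 TPM. Kmt2a, the MLL gene of leukaemia translocations, had 18.4 and 23.8 TPM. Kmt2d and Kmt2c overlapped in range, and Kmt2a lay under both in either library. The lowest was Setd1a, a promoter methyltransferase gene, with 8.06 and 13.1 TPM.

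The catalytic genes of Polycomb repressive complex 2, which methylates histone H3 lysine 27, differed in level. Ezh1, the form usual in non-dividing cells, had 15.5 and 26.7 TPM. Ezh2, the form usual in dividing cells, had 5.81 and 6.98 TPM, below Ezh1 in both libraries.

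The other Kmt and Setd genes numbered 12, all of them above 1 TPM. Setd5 (ENSMUSG00000034269.12, chromosome 6, 113077365 to 113153435, plus strand), a SET domain gene, had 49.9 TPM in replicate 1 and 82.8 in replicate 2. Setdb2 (ENSMUSG00000071350.12, chromosome 14, 59402009 to 59440884, minus strand), a gene that interferon can induce in macrophages, had 38.8 and 28.7 TPM. Setd2, the methyltransferase gene of lysine 36 in transcribed genes, had 29.0 and 37.9 TPM. Setdb2 was the only one of these 3 that was higher in replicate 1, and its range overlapped that of Setd2. Setd4 was lowest at 2.49 and 4.07 TPM.

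Of 15 lysine demethylase genes 13 reached 1 TPM. Kdm2a, which acts on lysine 36, had 37.0 TPM in replicate 1 and 50.6 in replicate 2, above the others in both libraries. Kdm3b, a demethylase gene of lysine 9, had 22.8 and 23.3 TPM. Kdm5a, a demethylase gene of lysine 4, had 19.2 and 24.8 TPM, so that it overlapped Kdm3b. Kdm6b (ENSMUSG00000018476.7, chromosome 11, 69398508 to 69413675, minus strand) encodes the lysine 27 demethylase JMJD3, known as inducible by lipopolysaccharide. It had 5.23 and 6.61 TPM, below the median of the 69 genes. Kdm8 had 0.51 and 0.88 TPM, and Kdm4d, a testis gene, had 0 counts in both libraries.

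Class I deacetylase genes were led by Hdac1, a catalytic subunit of the Sin3, NuRD and CoREST corepressors, with 27.9 TPM in replicate 1 and 36.3 in replicate 2. Hdac3, the catalytic subunit of the NCoR and SMRT corepressors, had 7.71 and 9.78 TPM, and Hdac2, the close relative of Hdac1, had 5.10 and 8.98 TPM. Hdac3 and Hdac2 overlapped in range, and both lay under Hdac1. Hdac8 was lowest, with 3.54 and 7.44 TPM.

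The signal-responsive class IIa genes were lower apart from Hdac5. Hdac5 had 18.5 TPM in replicate 1 and 14.6 in replicate 2. Hdac4 had 3.29 and 5.44 TPM, Hdac7 had 3.0 and 3.82 TPM and Hdac9 had 1.48 and 2.15 TPM, so Hdac4 and Hdac7 overlapped. In class IIb, Hdac10 had 4.76 and 4.44 TPM, and the tubulin deacetylase gene Hdac6 had 2.75 and 4.21 TPM. Hdac11, the class IV gene, was under 1 TPM, with 0.09 and 0.44 TPM on 6.81 and 16.9 counts.

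All 7 sirtuin genes reached 1 TPM, with Sirt7 and Sirt2 highest in both libraries. Sirt7 (ENSMUSG00000025138.14, chromosome 11, 120618372 to 120625240, minus strand), a nucleolar deacylase gene, had 49.1 TPM in replicate 1 and 49.9 in replicate 2. Sirt2, a mostly cytoplasmic form, had 21.4 and 26.1 TPM, and the chromatin-bound Sirt6 had 12.9 and 10.2 TPM. These 3 ranges did not overlap. Sirt1, the nuclear deacetylase that acts on p53 and NF-kB, had 7.25 and 14.5 TPM, and its range took in all of that of Sirt6. The mitochondrial forms Sirt4, Sirt3 and Sirt5 had 9.60 and 7.13 TPM, 3.53 and 7.76 TPM, and 2.22 and 3.84 TPM.

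Bromodomain genes held the highest value of all 69 genes. Brd2 (ENSMUSG00000024335.20, chromosome 17, 34112023 to 34122634, minus strand), a BET reader of acetylated histones, had 122 TPM in replicate 1 and 124 in replicate 2. Brd8, a subunit gene of the NuA4 acetyltransferase complex, had 21.6 and 33.3 TPM. Brd2 lay above it in either library. Brd3, another BET gene, was lowest at 4.62 and 7.52 TPM. Brd3os had 0.22 and 0.47 TPM.

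A large part of the signal of these genes lay in transcripts that are not annotated as protein-coding. The annotation lists 285 protein-coding, 181 retained intron, 47 nonsense-mediated decay and 93 processed transcripts for the 69 genes. Among the 61 genes at 1 TPM or more, the median share of a gene's TPM in the noncoding classes was 35.9% (31.1% in replicate 1 and 38.2% in replicate 2). It was 26.8% over the 9280 protein-coding genes with several transcripts at 1 TPM or more. The share reached 50% in 22 of the 61 genes, or 36.1%, against 22.6% of those 9280 genes. It did so in both libraries for 19 of the 61, a count not given here for the 9280 genes. All 61 genes have a noncoding transcript in the annotation, but not all of the 9280 do. Among the 8221 that do, the median share was 31.2% and 25.5% of genes reached 50%. Among genes with at least 5 noncoding transcripts the order was the other way, with 13 of 30 chromatin genes (43.3%) against 50.7% of 2486 genes. The chromatin genes had a median of 4 noncoding transcripts and the 9280 genes a median of 3.

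**Figure D2:**
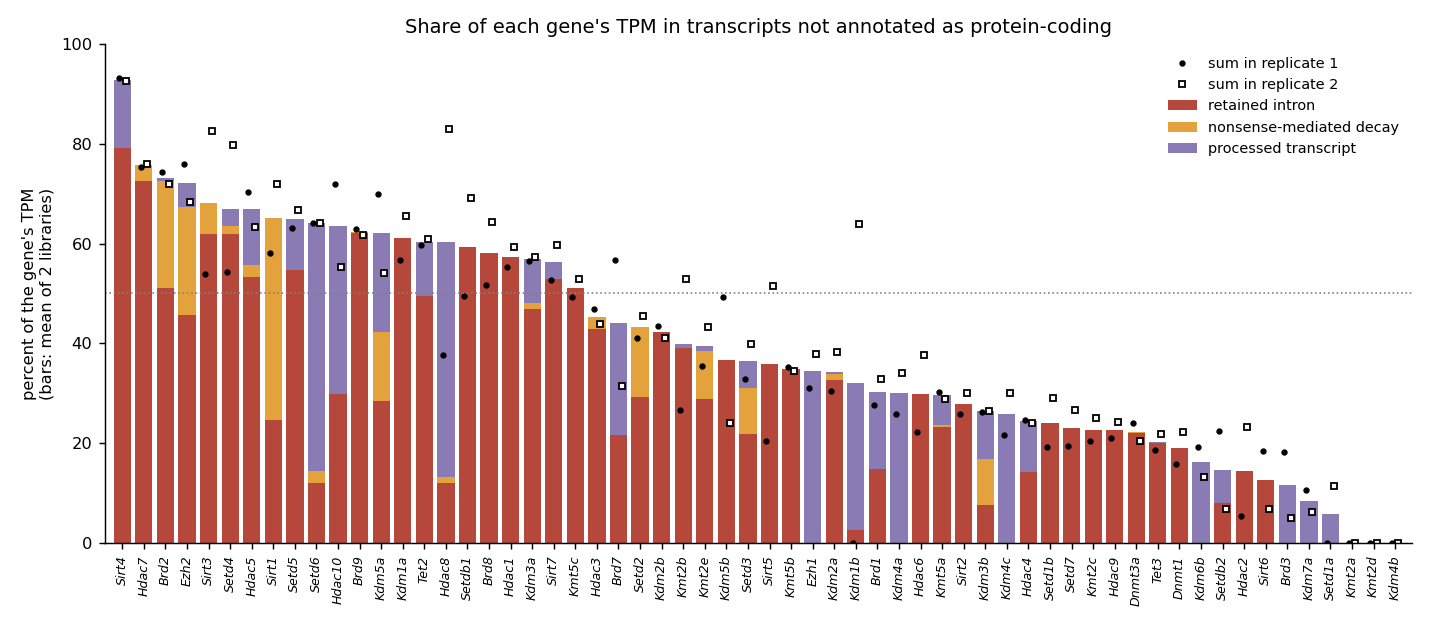
Percent of each gene's TPM in noncoding transcript classes for 60 of the 61 genes at 1 TPM or more. Bars are the mean of both libraries split by class, filled circles and open squares give the sum in replicates 1 and 2, and the dotted line marks 50%. Sirt4 stands highest, and Kmt2d, Kmt2a and Kdm4b are at 0.

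Retained intron transcripts were the largest of these classes in 42 of the 58 genes with any noncoding share. Processed transcripts were largest in 15 and nonsense-mediated decay in 1. These counts are not given here for other genes, so they cannot be read as particular to this set. Retained intron transcripts are also the most numerous noncoding class in the annotation of these genes. Over the 8221 genes with a noncoding transcript the median retained intron share was 18.4%, against 24.7% over the 61 genes. Decay and processed transcripts had medians of 0% over those 8221 genes. The gene led by decay was Sirt1. Its decay transcript Sirt1-205 had 2.31 TPM in replicate 1 and 7.10 in replicate 2, while its coding Sirt1-201 had 2.95 and 2.73 TPM. The deposited intervals of Sirt1-205 did not overlap between libraries (1.40 to 2.90 and 5.13 to 7.98 TPM). The sources used here do not give the confidence level of these intervals, and some TPM estimates lie outside their own interval. Each interval belongs to 1 library. The share of all transcripts whose intervals fail to overlap is not given here. The cases named here and below therefore cannot be read as particular to these genes.

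The highest noncoding shares belonged to genes of several families. Sirt4 had 93.1% in replicate 1 and 92.6% in replicate 2, on 169 and 84 counts for the whole gene. Hdac7 had 75.3% and 76.0%, and Brd2 had 74.3% and 71.9%. Ezh2 had 75.9% and 68.4%. Sirt3 had 53.8% and 82.6%, the widest gap of these 5. The other 4 differed by less than 10 percentage points between libraries. Among the 61 genes, shares of 50% or more were found in 4 of 7 sirtuin, 3 of 7 bromodomain, 5 of 12 other Kmt and Setd, 3 of 13 demethylase and 0 of 6 lysine 4 methyltransferase genes. Among the rest they were found in 2 of 4 class I, 2 of 4 class IIa and 1 of 2 class IIb deacetylase genes, 1 of 2 Ezh genes and 1 of 4 genes of DNA methylation. Kmt2d, Kmt2a and Kdm4b had 0% in both libraries.

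By transcript, several of the leading genes held both coding and noncoding forms. In Tet2 and Setd5 a coding transcript led in both libraries by alignment. In the other table, by the mean of the libraries, a noncoding one led, the retained intron transcript Tet2-208 and the processed transcript Setd5-206. For Brd2, the decay transcript Brd2-207 had 27.7 and 20.8 TPM, the coding Brd2-202 had 17.8 and 28.8 TPM, and the retained intron transcript Brd2-215 had 19.4 and 20.7 TPM. The retained intron transcript Brd2-217 had 0 and 10.8 TPM, and it led in the other table with 4.64 and 70.9 TPM. The leading Brd2 transcript therefore differed between libraries, and the intervals of Brd2-207 and Brd2-202 did not overlap between them. For Tet2, the coding Tet2-201 had 22.7 and 26.6 TPM, and the retained intron transcript Tet2-208 had 12.2 and 26.5 TPM. For Setd5, the coding Setd5-202 had 12.7 and 23.1 TPM and the retained intron transcript Setd5-209 had 9.89 and 21.3 TPM, both higher in replicate 2. In Dnmt3a the coding forms led, with Dnmt3a-201 at 19.3 and 16.2 TPM and Dnmt3a-218 at 9.82 and 17.0 TPM. Over the 61 genes the leading transcript was the same in both libraries for 39, a count not given here for the 9280 genes. By the mean of the libraries the leading transcript was noncoding for 11 of the 61 (18%), against 16.2% of the 9280 genes. Of those 11, 7 were retained intron transcripts. In replicate 1 the leading transcript was noncoding for 8 of the 61 (13.1%), against 13.6% of the 9280 genes. In replicate 2 it was noncoding for 12 (19.7%), against 19.5% of the 9280 genes. Both shares were close to those of the 9280 genes. In the other deposited table it was noncoding for 24 (39.3%), where 28.7% of the 9280 genes had such a leading transcript.

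**Figure D3:**
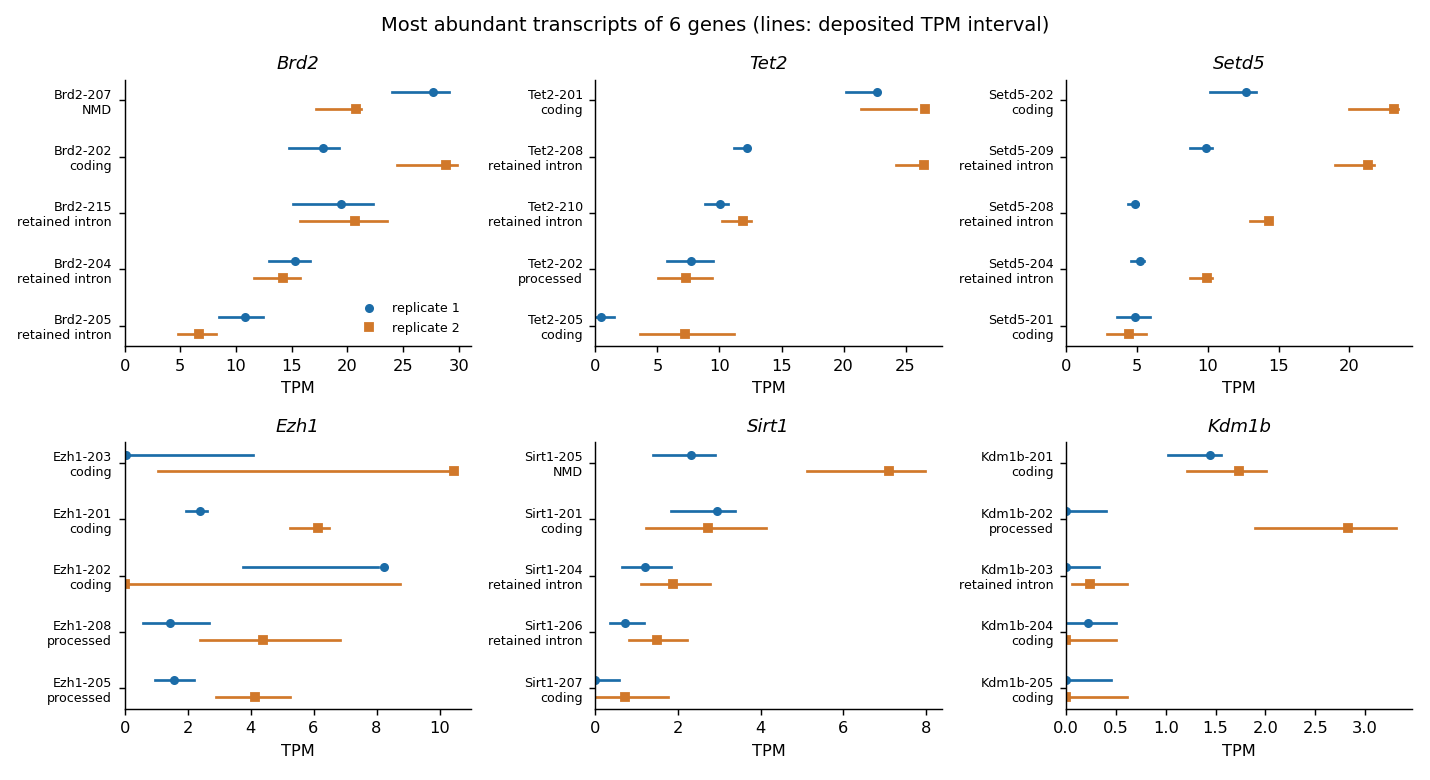
TPM of the 5 most abundant transcripts of 6 genes, with circles for replicate 1, squares for replicate 2 and lines for the deposited interval of each estimate. NMD marks nonsense-mediated decay transcripts. The Setd5 transcripts Setd5-202, Setd5-209, Setd5-208 and Setd5-204 are all higher in replicate 2, and the intervals of Ezh1-203 and Ezh1-202 are wide.

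In 31 genes a retained intron transcript with a value above 0 held at least 1 whole intron that a coding transcript of the gene splices out between coding exons. These transcripts held 46 such introns, with a median length of 257 bases and a range of 73 to 2478 bases. The first and last bases were GT and AG in 44 introns and GC and AG in 2. The annotation has no separate entry for an unspliced precursor, so reads inside such an intron that came from a whole precursor and from a partly spliced RNA cannot be told apart. The junctions of 1 intron each of 5 genes are shown because they are the stretches that set the retained form apart from the spliced one. Each reads 5′ to 3′ on the gene's strand (GENCODE M21, mm10), with the 20 bases of coding exon in lower case and the 20 bases of intron in capitals.
Sirt7 donor: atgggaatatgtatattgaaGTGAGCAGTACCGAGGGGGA
Sirt7 acceptor: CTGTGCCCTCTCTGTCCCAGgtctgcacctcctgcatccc
Brd2 donor: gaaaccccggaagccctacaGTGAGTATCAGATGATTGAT
Brd2 acceptor: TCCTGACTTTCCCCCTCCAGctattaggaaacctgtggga
Hdac1 donor: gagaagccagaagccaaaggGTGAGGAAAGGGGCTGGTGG
Hdac1 acceptor: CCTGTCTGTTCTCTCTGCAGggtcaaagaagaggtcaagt
Setd5 donor: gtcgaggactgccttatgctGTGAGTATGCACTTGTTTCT
Setd5 acceptor: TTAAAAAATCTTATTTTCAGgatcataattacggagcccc
Dnmt3a donor: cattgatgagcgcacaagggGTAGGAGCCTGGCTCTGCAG
Dnmt3a acceptor: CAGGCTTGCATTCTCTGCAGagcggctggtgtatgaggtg

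The 73-base Sirt7 intron (chr11:120620884-120620956, minus strand) lies whole in Sirt7-205, which had 14.9 TPM in replicate 1 and 17.9 in replicate 2. Sirt7-205 also holds a 142-base intron. The coding Sirt7-201, which removes both introns, had 21.1 and 17.0 TPM. In replicate 1 the spliced form was higher and in replicate 2 the retained form was, and the intervals of each transcript overlapped between libraries. The 198-base Brd2 intron (chr17:34112979-34113176, minus strand) lies in Brd2-204, with 15.3 and 14.2 TPM, which also holds a 147-base intron. The 263-base Hdac1 intron (chr4:129516637-129516899, minus strand) lies in Hdac1-206, with 6.14 and 12.4 TPM against 12.5 and 14.8 TPM for the coding Hdac1-201. The Hdac1-206 intervals did not overlap between libraries, with the higher value in replicate 2.

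The 326-base Setd5 intron (chr6:113109991-113110316, plus strand) lies in Setd5-204, which had 5.23 TPM in replicate 1 and 9.94 in replicate 2 and also holds the next 2 introns. The 117-base Dnmt3a intron (chr12:3897448-3897564, plus strand) lies in Dnmt3a-214, a 369-base transcript with 7.85 and 6.60 TPM on 37.3 and 20.6 counts. The coding forms that remove these introns, Setd5-202 and Dnmt3a-201, were higher than the retained forms in both libraries.

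TPM divides by transcript length, and many of the noncoding transcripts are short. Counted as a share of a gene's expected counts, the median noncoding share of the 61 genes was 18.7%, and that of the 9280 genes was 12.9%. Among the 8221 genes with a noncoding transcript it was 17.0%, close to that of the 61 genes. By counts 13 of the 61 genes reached a share of 50%, as did 1411 of the 8221. For Dnmt3a the share fell by this measure to 5.62%, while it was 32.6% for Tet2, 45.2% for Setd5 and 59.2% for Brd2. Brd2 also shares 3094 bases with H2-DMa on the opposite strand, a gene with 24.4 TPM in replicate 1 and 13.7 in replicate 2. Of the 69 genes 35 overlap a gene on the opposite strand, and 17 have such a neighbour at 1 TPM or more. Neither count is given here for all protein-coding genes, so it cannot be read as particular to the 69. The sources used here do not give the strand setting of the counting, so reads of such pairs cannot be told apart with certainty.

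The other deposited transcript table, made from the reads without that alignment, gave higher noncoding shares. Its median over the 61 genes was 50.3%, and over the 9280 genes it was 38.0%. Over the 8221 of these with a noncoding transcript the median was 42.5%. The share was higher there than in the alignment-based table for 50 of the 61 genes and lower for 11. For 18 genes it was 50% or more in both libraries and both tables. Neither the 50 nor the 18 has a matching count over the 9280 genes here, and the median of those genes was also higher in that table. Dnmt1 had a mean share of 50.3% in that table, against 15.8% and 22.2% in the 2 libraries by alignment. Kdm4b, a lysine 9 demethylase gene listed at 0% by alignment, had 54.2% and 43.3% there. The leading transcript was the same in both tables for 37 of the 61 genes, so for the rest no single transcript can be named as the main form. That count is not given here for the 9280 genes.

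**Figure D4:**
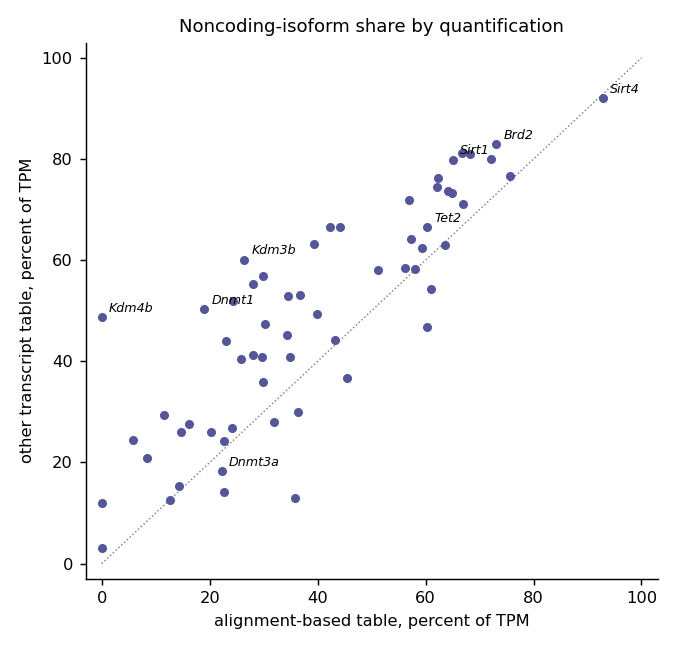
Noncoding share of TPM for the 61 genes, mean of both libraries, in the alignment-based table (horizontal) and the other transcript table (vertical), with a dotted line of equality. 50 points lie above the line, Kdm4b farthest from it at the left, and Sirt4 is highest in both.

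Gene levels by the other table kept the overall order. Across the 61 genes the correlation of log2(TPM + 1) between the tables was 0.955, as a description over genes of the same 2 libraries. The scale differed, as the median of genes at 1 TPM or more was 2.10 TPM in replicate 1 and 6.49 in replicate 2 there, so the gaps between tables given next are relative to the median gene. The gap was widest for Sirt5, a mitochondrial desuccinylase gene, at 1.71 on the log2 scale. Kdm4b followed at 0.74, Sirt1 at 0.59 and Hdac9 at 0.56, all higher in the other table, while Sirt7 was lower there by a value of -0.61. Sirt5 had 2.22 and 3.84 TPM by alignment and 3.10 and 11.6 TPM in the other table.

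As the only replicates, the libraries were set against each other by log2 of replicate 2 over replicate 1 after adding 1 TPM to each, minus the value of the median gene, which was 0.29. None of the 61 genes at 1 TPM or more differed 2-fold or more (0 of 61), where 7.29% of the 12952 genes at that level did. All 61 genes had at least 100 counts in the libraries together, and among protein-coding genes with that many the share was 3.75%. The median difference of the 61 genes was 0.08 (SD over genes 0.33, range -0.71 to 0.83), with 37 genes higher and 24 lower in replicate 2, and the median of all genes is 0 by construction. Within 0.5 of the median gene lay 52 of the 61 genes, or 85.2%, against 69.1% of all genes and 73.7% of protein-coding genes at 1 TPM or more. Without the centring, 52 of the 61 were higher in replicate 2, and so the direction of a small difference depends on it. Most of the 12952 genes were also higher there without the centring, since their median was then 0.29. By CPM, also without centring, 42 of the 61 were higher, and the share of all genes on that scale is not given here.

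**Figure D5:**
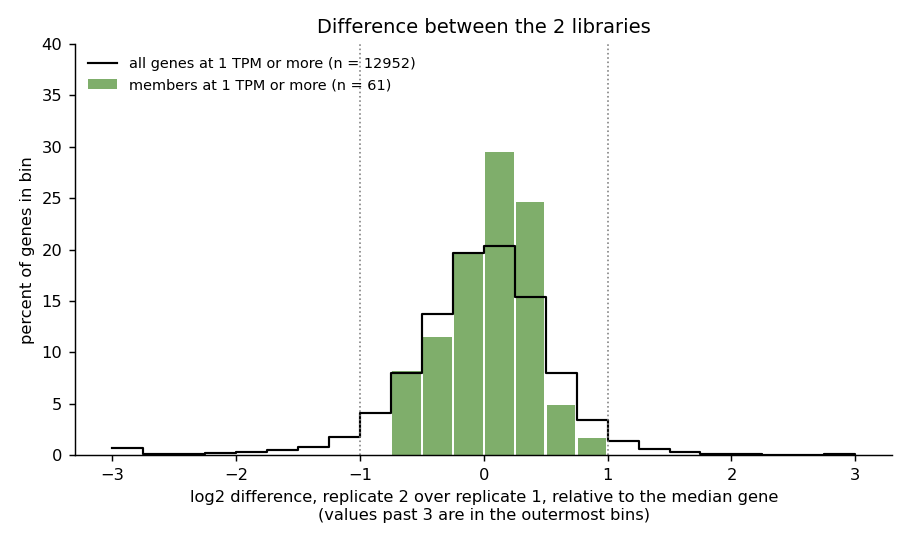
Distribution of the log2 difference between the libraries relative to the median gene, in percent of genes per bin of 0.25. Green bars are the 61 chromatin genes at 1 TPM or more, the black outline is all 12952 genes at that level and dotted lines mark 2-fold. All green bars lie between the dotted lines.

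At 0.5 or more from the median gene stood 9 genes, 5 lower and 4 higher in replicate 2. Setdb2, with the 38.8 and 28.7 TPM given above, was lowest at -0.71. Sirt4 differed by -0.67, Hdac5 by -0.61, Sirt6 by -0.60 and Kdm4b, with 4.19 and 3.20 TPM, by -0.59. For Setdb2 the coding Setdb2-205 had 27.1 TPM in replicate 1 and 23.4 TPM in the other, and the retained intron transcript Setdb2-203 had 4.58 and 1.25 TPM. Both lay lower in replicate 2, with intervals that did not overlap. Interferon-stimulated genes were also lower there, all 12 of a list, with a median difference of -1.18 and 7 of them past 2-fold. Whether that bears on Setdb2 was not tested.

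The genes that were higher in replicate 2 by 0.5 or more were Kdm1b at 0.83, Sirt3 at 0.66, Sirt1 at 0.62 and Hdac8 at 0.61. Kdm1b (chromosome 13, 47043499 to 47085279, plus strand), a flavin-dependent lysine 4 demethylase gene named here after its values were seen, had 1.67 TPM in replicate 1 and 4.79 in replicate 2. Its processed transcript Kdm1b-202 had 0 and 2.83 TPM, with intervals that did not overlap (under 0.40, and 1.89 to 3.31 TPM), while its coding Kdm1b-201 had 1.44 and 1.73 TPM. On the opposite strand Kdm1b shares 505 bases with Dek, at 29.9 and 42.1 TPM, and 1239 bases with Tpmt, at 0.45 and 1.71 TPM. Whether reads of these neighbours entered the Kdm1b values was not tested. Without centring, or with 0.1 TPM added in place of 1, Kdm1b alone of the 61 genes passed 2-fold. In Ezh1 the estimates lay on different coding transcripts, as Ezh1-202 had 8.23 and 0 TPM and Ezh1-203 had 0.04 and 10.5 TPM, while the intervals of each overlapped between libraries.

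Partners of these enzymes were read from lists of complex subunits and related enzymes. In Polycomb repressive complex 2, 8 of 9 partner genes reached 1 TPM, from Eed, which binds methylated lysine 27, with 34.5 and 30.1 TPM, to Phf19, a Polycomb-like subunit gene, with 0.71 and 0.82 TPM. All 11 partner genes of the lysine 4 methyltransferases did, from the coactivator gene Ncoa6 with 24.6 and 37.6 TPM to Dpy30 with 2.31 and 1.44 TPM. All 16 deacetylase corepressor genes did, with a median of 17.1 TPM, from Ncor1, the scaffold for Hdac3, with 72.5 and 117 TPM to Mbd3, a NuRD subunit gene, with 6.28 and 4.50 TPM. Ncor1 thus stood above every deacetylase gene in both libraries.

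Other writers and readers were present as well. All 12 further histone methyltransferase genes reached 1 TPM, with Nsd3, a lysine 36 methyltransferase gene, highest at 63.4 and 67.3 TPM and Prmt5, an arginine methyltransferase gene, lowest at 2.70 and 4.25 TPM. All 10 histone acetyltransferase genes did, from Ep300, which encodes p300, at 44.9 and 57.0 TPM to Kat8 at 6.05 and 5.55 TPM. All 8 genes that read or maintain DNA methylation did, from Uhrf2 at 22.6 and 31.9 TPM to Uhrf1, the partner of Dnmt1 at replication, at 1.82 and 1.32 TPM. The list medians lay between 9.47 and 17.1 TPM, and 0 genes of any of these 6 lists differed 2-fold or more between the libraries by TPM. By CPM 1 did, Pagr1a, a lysine 4 methyltransferase partner named after its values were seen. It had 4.24 CPM in replicate 1 and 0.478 in replicate 2, on 93.0 and 8.48 counts, while its TPM was 2.86 and 1.75. It also passed 2-fold with TMM-scaled counts and with 0.1 TPM added in place of 1, and without centring only Suv39h2, a lysine 9 methyltransferase gene also named after its values were seen, did.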

How the data were processed

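Nuclear RNA of 2 libraries of 1 group was read from deposited tables on mm10 with GENCODE M21. The deposited alignment-based gene and transcript tables hold expected counts (estimated reads, not normalised), TPM and isoform percent, per the file headers, and each estimate's TPM bounds. A second deposited transcript table, not based on that alignment, has estimated counts with TPM, as its file headers name them. The sources used here name no aligner, quantifier or strand setting. Members and lists were chosen with earlier results of these data known. Entries without a gene name (26345, spike-ins included) stayed out. The values of 1 member are counted but not reported here.

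Levels were log2(mean TPM + 1). Differences were log2 of replicate 2 over replicate 1 with a pseudocount of 1, centred on the median of genes with a mean of 1 TPM or more. Noncoding share was the percent of a gene's TPM in transcripts not annotated protein-coding. Per-library values were given for the 3 highest and the lowest gene of each family, 10 set genes, genes under 1 TPM, and the 5 highest noncoding shares and table gaps. A chi-square per degree of freedom of 91.2 over 14355 genes showed that the libraries are not a duplicate deposit. The calculation of the difference was checked on simulated data. TMM factors came from edgeR 4.0.16 in R 4.3.3. Other steps used Python 3.11.15 with pandas 2.3.3, numpy 2.4.6 and scipy 1.17.1, and figures matplotlib 3.10.9. Depth was 21954179 and 17739520 expected counts, and intervals of shares cover counting error only. Alternatives were other pseudocounts, filters, scalings and backgrounds, the other table, and leaving out each replicate.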

Additional observations from a re-analysis of the deposited data

How the results depend on the processing

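The number of genes at 1 TPM or more was 61 under every alternative tried (the other table, rescaled TPM, either library alone). The median level of all 69 genes, 3.81 on the log2(TPM + 1) scale, was 3.14 by raw TPM in the other table (3.80 relative to the median gene, which lies lower there by a shift of -0.66), 4.10 with TPM rescaled after removing mitochondrial and short genes (under 200 bases) and 5.46 with CPM, and 3.77 to 3.96 in single libraries. The median difference between libraries of 0.08 was 0.24 without a filter and 0.37 without centring, and lay between 0.05 and 0.14 under the other 8 settings. The count of genes past 2-fold was 1 (Kdm1b) without centring and with a pseudocount of 0.1, against 9.68% and 12.8% of all genes there, and 0 under the other 8 settings. The median noncoding share of 35.9% was 50.3% in the other table and 18.7% by expected counts, a setting chosen after seeing the data, and 31.1% to 38.2% in single libraries; the cause was not tested. Of 48 named genes 38 moved in level by more than the spread of the libraries in the other table by raw TPM, and 24 did relative to the median gene, a setting also chosen after seeing the data. Leaving out either library moved 0 of the 48 genes by more than that spread, which comes from the same 2 values and so carries little weight. The median level of all 69 genes did move by more than its spread of 0.137 without replicate 1 (3.96). No paired analysis was possible because there was 1 group. Transcript values rest on few reads in genes such as Sirt4, and no sequence of genes on chromosome 18 is shown.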
